A study of Drosophila melanogaster with 2 samples.

Results

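A set of 10 fly chaperone genes was followed through the binding profile of the protein CG11723. They were the cytosolic Hsp90 gene Hsp83, the small heat shock protein genes Hsp22, Hsp23, Hsp26 and Hsp27, the Hsp70 cognates Hsc70-3, Hsc70-4 and Hsc70-5, the mitochondrial chaperonin gene Hsp60A and the Hsp40 gene DnaJ-1. These are 10 of 18277 annotated genes on the major chromosome arms, 13968 of which are protein-coding. A region was assigned to one of them when its summit, the position of highest signal, fell inside the gene or at most 500 bp from one of its annotated transcription start sites (TSSs). By this rule the genes held 9 of the 3869 regions of the final list, 18 of the 30000 regions of the pooled list, 21 regions of replicate 1 and 15 of replicate 3.

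The material was whole Drosophila melanogaster embryos, both sexes together, collected from 0 to 16 hours of age from a line that stably carries a transgene of CG11723 with GFP at its C-terminus. Chromatin was sonicated to fragments of 200 to 800 bp and precipitated with an antibody against GFP, and the DNA was sequenced (ChIP-seq). There was 1 group with 2 biological replicates, numbered 1 and 3, and no embryos without the transgene, heat-shocked embryos or input DNA were analysed here. All values therefore describe 1 condition in a whole-embryo mixture of cells, and no test between groups was possible.

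Chaperones bind unfolded or partly folded proteins and keep them from aggregating. Hsp90 and Hsp70 proteins do so in cycles of ATP hydrolysis, J proteins such as Hsp40 deliver substrates to Hsp70, small heat shock proteins hold unfolded proteins without ATP, and chaperonins enclose them in a chamber. The stress-inducible genes are switched on by heat shock factor, which binds heat shock elements, arrays of a short GAA unit in alternating orientation, while GAGA factor binds GA-rich promoter DNA at several of them, Hsp26 included. The cognate genes are expressed without stress, and the small heat shock genes are also expressed at set times in normal development.

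The sequence under a summit is the DNA around which the tagged protein was recovered, so it is shown for 4 genes whose summit lay outside exons. Each is the base at the summit of the gene's strongest pooled region with 50 bases to each side, called its summit window and read from the RefSeq Release 6 assembly (dm6) on the strand of the gene, 5′ to 3′. Capitals mark a pair of heat shock element units (GAANNTTC or TTCNNGAA) or a GAGA element (GAGAG), on either strand.
Hsp26, chr3L:9377474-9377574, minus strand: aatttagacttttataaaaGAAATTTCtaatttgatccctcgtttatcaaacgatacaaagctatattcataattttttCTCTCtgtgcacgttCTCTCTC
Hsp27, chr3L:9383851-9383951, plus strand: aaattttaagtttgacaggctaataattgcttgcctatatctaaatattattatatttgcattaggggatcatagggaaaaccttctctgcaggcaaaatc
Hsc70-4, chr3R:15242471-15242571, plus strand: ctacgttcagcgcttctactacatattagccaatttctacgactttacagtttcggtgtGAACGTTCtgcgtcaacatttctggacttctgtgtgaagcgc
Hsp60A, chrX:11108318-11108418, plus strand: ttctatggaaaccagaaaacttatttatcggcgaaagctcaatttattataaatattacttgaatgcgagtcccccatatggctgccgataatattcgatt
The windows of Hsp26 and Hsc70-4 held 1 heat shock element pair each. That of Hsp26 also held GAGA elements, and those of Hsp27 and Hsp60A held neither.

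The summit window of Hsp83 was exonic and that of DnaJ-1 partly so, and the 30 bases around a heat shock element pair are shown instead, with the pair in capitals. For Hsp23 the 68 bases of the summit window that precede its TSS are shown. Beside them stands the one exact array of 3 alternating units found near any of the genes. The search ran from 600 bases before to 100 after the TSS nearest to each gene's pooled summit, and other TSSs were not searched. Arrays with mismatched units were not searched either. The last sequence is the summit window of a region inside the first intron of Hsp83.
Hsp83 site, chr3L:3193137-3193166, plus strand: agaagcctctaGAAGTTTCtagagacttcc
DnaJ-1 site, chr3L:5752178-5752207, minus strand: agaagcatccaGAAATTTCgacgtagacga
Hsp23 upstream of the TSS, chr3L:9381814-9381881, plus strand: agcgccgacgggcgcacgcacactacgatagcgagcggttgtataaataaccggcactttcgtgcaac
Hsp23 array, chr3L:9381477-9381489, plus strand: GAAGTTTCGCGAA
Hsp83 intron, chr3L:3194191-3194291, plus strand: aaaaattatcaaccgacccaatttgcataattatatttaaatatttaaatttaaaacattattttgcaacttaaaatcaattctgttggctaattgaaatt
Counted in bp from the TSS, with negative positions upstream, the array of Hsp23 lay at -405 to -393, outside the region called there. The intronic window of Hsp83 was rich in A and T, with a GC content of 19.8%, and held no marked motif.

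The regions come in ordered lists. The pooled list and the list of each replicate hold 30000 regions called before any threshold, and the final list, called the IDR list, holds the regions kept by the irreproducible discovery rate across both replicates. It coincided with pooled ranks 1 to 3869, where rank 1 is the highest signal, the last region inside having a signal of 88.8 and the first outside 88.7. Signal is the caller's value for a region, whose scale the file notes do not state, and is compared only within a list. The median pooled signal was 31.0. The lists hold no read numbers, so the depth of each sample is unknown.

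An IDR region stood at a TSS of 7 of the 10 genes, against 2092 of 13968 coding genes (15.0%). The 7 were Hsp83, 3 of the 4 small heat shock genes of the set (Hsp22, Hsp26 and Hsp27) and its 3 Hsp70 cognates, while Hsp23, Hsp60A and DnaJ-1 had none. All 10 had a pooled region, of whatever rank, at a TSS, as did 5188 coding genes (37.1%), and of those 5188 genes 40.3% had one in the IDR list. Taken by replicate, 6 of the 10 had a TSS region among the 3869 strongest of both replicates, against 9.59% of coding genes. The genes were chosen with results of these data known, so these shares describe the choice and were not tested.

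**Figure D1:**
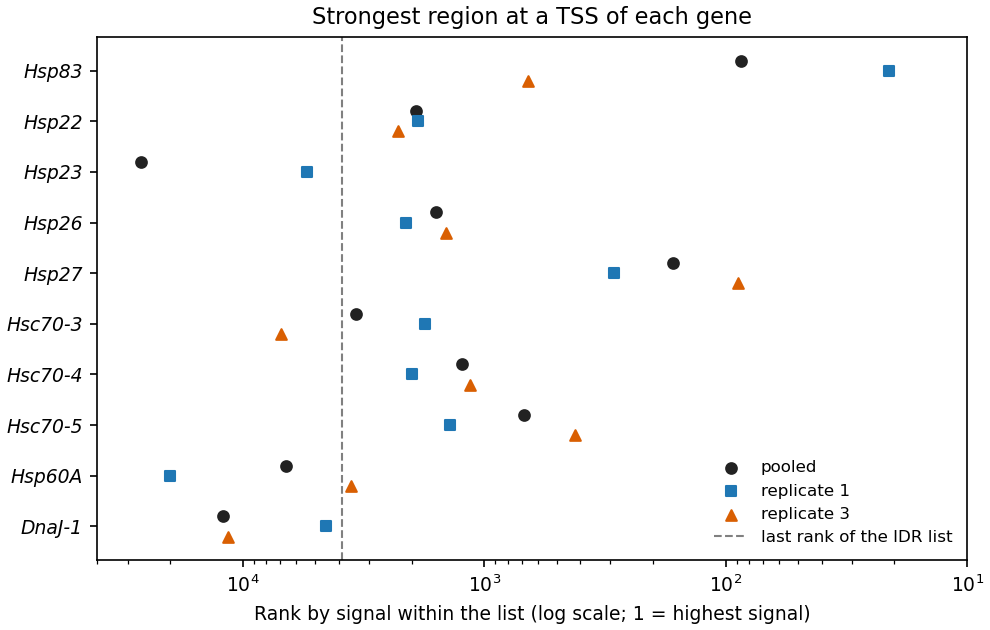
Rank by signal (log scale, 1 the highest) of the strongest region within 500 bp of a TSS of each gene, in the pooled list (circles), replicate 1 (squares) and replicate 3 (triangles), with the last rank of the IDR list, 3869, dashed. Hsp83 and Hsp27 stand farthest to the right in the pooled list and replicate 1, Hsp27 and Hsc70-5 in replicate 3, Hsp23 has no symbol for replicate 3, and the order of the replicates differs between genes.

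Among the 7 genes, the strongest TSS region had a median pooled signal of 191 (quartiles 155 and 389) and a median rank of 1234. For all 2092 coding genes with an IDR region at a TSS the median was 167 (quartiles 116 and 274) and the median rank 1542. The genes thus spanned much of the IDR list, from rank 86 at Hsp83 to rank 3392 at Hsc70-3, as the plot of ranks by gene shows. The replicates placed the summits close together: in 8 of the 9 IDR regions both had an overlapping region, and their summits were a median of 24.0 bp apart (0 to 137). Over all IDR regions the median distance was 37.0 bp, in 3613 of 3869 regions, and the difference was not tested.

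Hsp83 (FBgn0001233, chr3L:3192969-3197059, plus strand), which encodes the cytosolic Hsp90 that holds kinases and hormone receptors in an activatable state, had the highest signal of the 10 in the pooled list and in replicate 1, and the third highest in replicate 3, after Hsp27 and Hsc70-5. Its TSS region (chr3L:3192924-3193301, 378 bp) had a signal of 626 and rank 86 in the pooled list. It reached 497 and rank 21 in replicate 1, and 130 and rank 658 in replicate 3. The region ranked high in both replicates, more so in replicate 1, and its pooled signal was 20.2 times the list median. Of the 5188 coding genes with a pooled TSS region, 98.6% had a lower strongest signal.

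The summit of that region stood 108 bp upstream of the inner of the gene's 2 annotated TSSs, at position -108, and 139 bp downstream of the outer one, in the untranslated first exon of the longer transcript. The replicate summits stood at -90 and -109 bp from the inner TSS. The heat shock element pair printed above lay between the summit and the inner TSS, at -68 to -61, with its centre 43.5 bp downstream of the summit, and a TATAAA match lay at -30 to -25. The distance to the TSS therefore depends on which transcript is used.

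Hsp83 was the only one of the 10 with an IDR summit in the gene body away from every TSS, which 6.74% of coding genes had. This region (chr3L:3194143-3194394, 252 bp) lay in the intron between the untranslated first exon and the coding exon, 1025 bp after the inner TSS and 1272 bp after the outer one. Its signal was 265 (rank 674) in the pooled list, 156 (rank 632) in replicate 1 and 102 (rank 991) in replicate 3. Both replicates placed it among their strongest regions, with summits 7 bp before and 22 bp after the pooled one. The map of Hsp83 shows both regions against its exons. Replicate 3 alone listed a further, weak region in the coding exon, with a signal of 17.1 and rank 12484.

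**Figure D2:**
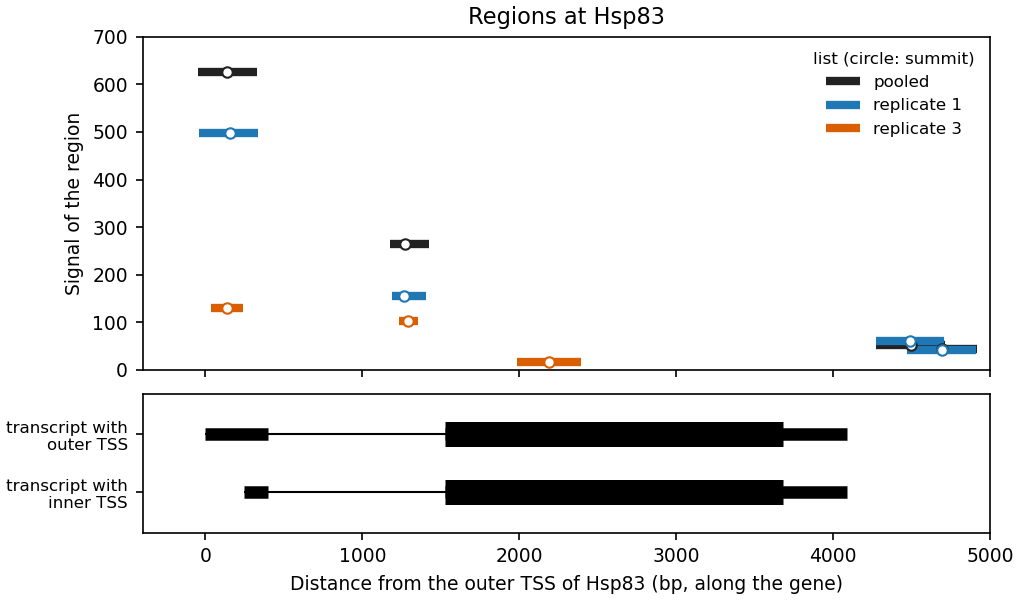
Regions at Hsp83 in the pooled list (black), replicate 1 (blue) and replicate 3 (orange): the horizontal axis is the distance from the outer TSS in bp, the vertical axis the signal of each region, bars span the regions and circles mark summits, with the exons of both transcripts drawn below (thick where coding). The first exon and the intron each hold a region in all 3 lists, with pooled signals of 626 and 265.

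The small heat shock genes Hsp22, Hsp26, Hsp23 and Hsp27 lie within 12764 bp of each other on arm 3L, in a cluster with Hsp67Ba, Hsp67Bc and CG4456. Hsp22, Hsp26 and Hsp27 had an IDR region and Hsp23 did not. Hsp27 (FBgn0001226, chr3L:9384063-9385694, plus strand), a largely nuclear small heat shock protein, stood highest. Its region (chr3L:9383731-9384078, 348 bp) had a signal of 516 and rank 166 in the pooled list, 228 and rank 289 in replicate 1, and 290 and rank 89 in replicate 3. It was thus strong in both replicates, and 97.0% of coding genes with a pooled TSS region had a lower signal. The summit lay at -162 bp in the pooled list and in replicate 3, and at -145 bp in replicate 1.

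The nearest heat shock element pair of Hsp27 was at -338 to -331, with its centre -172.5 bp from the summit, at the upstream edge of the region. Its summit window, printed above, had a GC content of 31.7%.

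Hsp26 (FBgn0001225, chr3L:9376418-9377427, minus strand), a cytosolic small heat shock protein, had a region at its TSS (chr3L:9377304-9377743) with a signal of 165 and rank 1588 in the pooled list. The same place gave 82.1 and rank 2115 in replicate 1, and 83.3 and rank 1441 in replicate 3. These ranks are close to each other and lie in the middle of the IDR list. The summit stood at -97 bp, with -60 bp in replicate 1 and -119 bp in replicate 3. Positions at this gene are from the outer of its 2 annotated TSSs, the one nearest to the summit.

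Matches were close to this summit. A heat shock element pair lay at -128 to -121, with its centre -27.5 bp from the summit, and another at -291 to -284. Pairs of the other orientation, TTCNNGAA, lay at -317 to -310, -216 to -209 and 3 to 10, and 6 GAGA matches, some overlapping, lay between -68 and -31. The pair at 3 to 10, counted like the others from the outer TSS, lay upstream of the inner one. A second region in the coding exon was near the end of the pooled list, with a signal of 18.3 and rank 28090, and replicate 3 had none there.

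Hsp22 (FBgn0001223, chr3L:9372931-9374964, plus strand), a mitochondrial small heat shock protein, had an IDR region (chr3L:9373324-9373763) with a signal of 145 and rank 1925 in the pooled list. Replicate 1 gave it 87.4 and rank 1881, and replicate 3 gave it 60.5 and rank 2273. Of all 10 genes it had the most even ranks across the 3 lists. Its summit lay -453 bp from the inner TSS but 613 bp after the outer one, in an annotated untranslated exon, and the region also lies within the body of the overlapping gene CG4456. No heat shock element pair was within the summit window. The 3 pairs near the inner TSS began at -188, -87 and 78 bp, and 13 GAGA matches, some overlapping, lay between -337 and 4 bp.

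A second region of Hsp22 (chr3L:9372565-9373004) missed the IDR list, with a pooled signal of 82.7 and rank 4243. It ranked 4139 in replicate 1 and 8027 in replicate 3, and its summit was 146 bp upstream of the outer TSS, at -146. It also lay within 500 bp of the TSSs of CG4456 and Hsp67Bc, and its signal cannot be assigned to one of the 3 genes. Of all regions of the 10 genes left out of the IDR list it came closest to entering it, while Hsc70-3 was the gene nearest the limit on the inside.

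Hsp23 (FBgn0001224, chr3L:9381882-9382765, plus strand), a cytosolic small heat shock protein, differed from Hsp22, Hsp26 and Hsp27 in having no IDR region. The pooled list gave its TSS region (chr3L:9381644-9382083) a signal of 19.5 and rank 26279, with a −log10 q value of 0.28. Replicate 1 listed the region at 46.7 and rank 5421, with its summit on the same base, -18 bp from the TSS, and replicate 3 listed none. Only 3.55% of coding genes with a pooled TSS region had a lower signal. In replicate 1, however, its −log10 q value was 4.07, the maximum of that list. There 54.0% of coding genes with a TSS region had a lower signal. Hsp23 held the only exact array of 3 alternating units found in the stretches searched at the 10 genes. No mismatch was allowed in that search, and further pairs lay at -168 to -161 (TTCNNGAA) and -138 to -131 (GAANNTTC). So within the cluster the order by pooled signal was Hsp27, Hsp26, Hsp22 and Hsp23, and each replicate also placed Hsp27 first, with Hsp23 last or not listed, while Hsp22 and Hsp26 changed places between them.

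**Figure D3:**
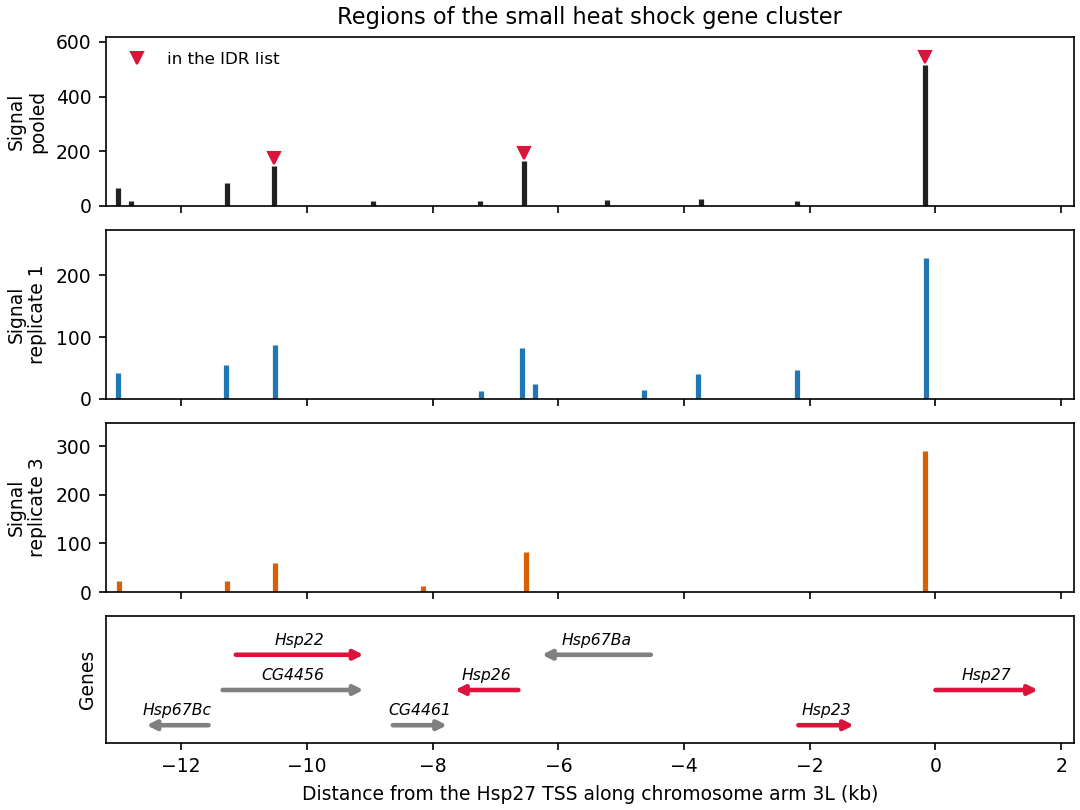
Regions across the small heat shock gene cluster: the horizontal axis is the distance from the Hsp27 TSS in kb, the upper 3 panels give the signal of each region at its summit in the pooled list and in replicates 1 and 3 (each panel on its own scale), and the lowest panel shows genes as arrows, red for Hsp22, Hsp26, Hsp23 and Hsp27. Red triangles mark the 3 regions in the IDR list, at Hsp22, Hsp26 and Hsp27, and the region at Hsp27 is the tallest in every list.

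No IDR region stood at a TSS of CG4456, Hsp67Bc, Hsp67Ba or CG4461, which lie in the same cluster. CG4456, listed in RefSeq also as Hsp67Bb, and Hsp67Bc shared the region of signal 82.7 described above. Hsp67Ba had no pooled region at its TSS and only a region of rank 25147 in replicate 1, and CG4461 had one of rank 28722 in the pooled list. The map of the cluster shows 11 regions in the pooled list, 10 in replicate 1 and 6 in replicate 3.

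All 3 Hsp70 cognates had an IDR region, each at a different place relative to its TSS. Hsc70-4 (FBgn0266599, chr3R:15242687-15246614, plus strand), the main constitutive cytosolic Hsp70, which also uncoats clathrin vesicles, had a region (chr3R:15242301-15242740) with a signal of 191 and rank 1234 in the pooled list. Replicate 1 gave 84.9 and rank 1991, and replicate 3 gave 95.1 and rank 1142. Both replicates thus kept it in the upper part of their lists. The summit stood at -166 bp, at -153 bp in replicate 1, and the heat shock element pair printed above, at -157 to -150, was centred 12.5 bp from it. The summit was also within 500 bp of a TSS of tefu, the fly ATM kinase gene. Weaker regions, at ranks 11262 and 11519, lay 41 bp after the outermost TSS and -46 bp from an inner one.

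Hsc70-3 (FBgn0001218, chrX:11801696-11807117, minus strand) encodes BiP, the Hsp70 of the endoplasmic reticulum. Its IDR region (chrX:11807371-11807810) had a signal of 97.5 and rank 3392, with its summit at -474 bp from the outermost TSS. Replicate 1 gave 91.6 and rank 1754 at the same base, but replicate 3 had no region there. The strongest region of replicate 3 was another one, at an inner TSS (-30 bp), with a signal of 25.1 and rank 6918, and the pooled list had a region of rank 5362 beside it, 10 bp after that TSS. The IDR region of Hsc70-3 was thus listed in replicate 1 and not in replicate 3. It had the lowest signal of the 9, and its summit was the farthest from a TSS among the TSS regions.

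Hsc70-5 (FBgn0001220, chr2R:14252598-14256192, minus strand) encodes the mitochondrial Hsp70, which draws proteins into the matrix. It was the only one of the 7 genes with more than 1 IDR region at a TSS, which 14.0% of coding genes with an IDR region had. The first (chr2R:14256018-14256277, 260 bp) had a signal of 262 and rank 685 with its summit at -14 bp, and the second (chr2R:14256296-14256502, 207 bp) had 175 and rank 1444 at -214 bp. Replicate 3 split them likewise, with 163 and rank 419 at 32 bp and 138 and rank 579 at -168 bp. Replicate 1 covered both with 1 region of signal 104 and rank 1386, its summit between them at -105 bp. These positions are from the outer of the gene's 2 annotated TSSs, and all of these summits lay upstream of the inner one. Both IDR summits also lay within 500 bp of a TSS of CG8531, so the 2 genes cannot be separated here.

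Neither the chaperonin nor the Hsp40 gene reached the IDR list. Hsp60A (FBgn0015245, chrX:11108482-11112308, plus strand), which forms the folding chamber of the mitochondrial matrix, had a pooled TSS region (chrX:11108148-11108587) of signal 58.8 and rank 6649 with its summit at -114 bp. It reached 43.2 and rank 3557 in replicate 3 at the same base, but 18.2 and rank 20075 in replicate 1, at 76 bp. Hsp60A was the only one of the 10 whose TSS region was among the 3869 strongest of replicate 3 but not of replicate 1, the reverse of Hsc70-3. The pooled −log10 q value was 2.76.

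DnaJ-1 (FBgn0263106, chr3L:5750029-5752189, minus strand), a heat-inducible Hsp40, had a pooled region (chr3L:5751958-5752397) of signal 36.7 and rank 12104 with its summit 11 bp after the TSS. Replicate 1 gave 52.4 and rank 4514 at 27 bp, and replicate 3 gave 18.0 and rank 11534 at -187 bp. It lay outside the strongest 3869 in both, and 24.5% of coding genes with a pooled TSS region had a lower signal. The heat shock element pair printed above ended at the TSS and was centred -14.5 bp from the summit.

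**Figure D4:**
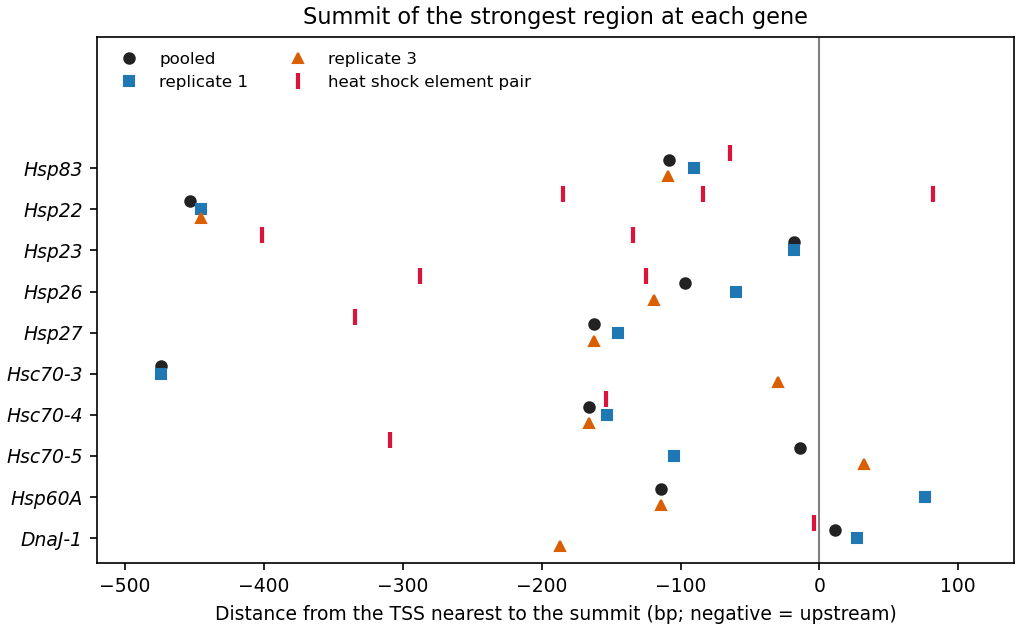
Position of the summit of the strongest TSS region of each gene in the pooled list (circles), replicate 1 (squares) and replicate 3 (triangles), in bp from the annotated TSS nearest to that summit, with heat shock element pairs of the GAANNTTC orientation alone (red ticks) placed from the TSS nearest to the pooled summit. The pooled summits of Hsp83, Hsp26, Hsc70-4 and DnaJ-1 stand within 50 bp of a red tick, those of Hsp22 and Hsc70-3 at -453 and -474 bp, and the replicate 3 symbol of Hsc70-3 belongs to another region at another TSS.

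In all 7 genes with an IDR region the pooled summit of the strongest one was upstream of the nearest TSS, at a median of -162 bp (quartiles -310 and -102). Of the 2092 coding genes, 1794 (85.8%) had it upstream, at a median of -133 bp (quartiles -227 and -49). The difference was not tested. Hsc70-3 at -474 bp and Hsp22 at -453 bp lay upstream of that lower quartile and just inside the 500 bp that defined a TSS region. Measured from the outermost TSS instead, the summits of Hsp83 and Hsp22 were downstream, at 139 and 613 bp.

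Counted over the 10 genes, a GAANNTTC pair was in the summit window of 4, Hsp83, Hsp26, Hsc70-4 and DnaJ-1, and in 108 of all 3869 IDR summit windows (2.79%). Of these 4 genes, 3 had an IDR region, so the count comparable with the IDR windows is 3 of 7. The other orientation, TTCNNGAA, was in none of the 10 (2.61% of IDR windows), and an exact array of 3 units was in none (0.0775%). In the promoter, from 250 bases before to 50 after the TSS, GAANNTTC was in 6 of the 10, against 9.34% of 19276 promoters of coding genes, and TTCNNGAA in 3 of the 10, against 7.61%. Heat shock genes are known to carry these elements, and a match is a description of the sequence only.

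GAGAG was in the summit windows of 2 of 10 genes, Hsp26 and Hsc70-3, against 11.9% of IDR windows, and in 4 of 10 promoters against 33.1%. Both genes had an IDR region, so the count comparable with the IDR windows is 2 of 7. The promoter letters TATAAA were in 9 of 10 promoters, against 42.2% of coding promoters, and in 5 of 10 summit windows against 19.2% of IDR windows. Of those 5 genes, 2 had an IDR region, so the count comparable with the IDR windows is 2 of 7. TATCGATA, the core of the DNA replication-related element of many promoters, and ACAGTGG, a further motif searched, were in none of the 10 summit windows, against 1.76% and 3.23%. The GC content of the windows of the 7 genes had a median of 31.7%, from 21.8% at Hsp22 to 48.5% at Hsp83, beside a median of 34.7% over the IDR list. All motifs were read on both strands, and GAANNTTC and TTCNNGAA overlap in an array.

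Other chaperone genes, 60 names sorted by role, served as the frame. Of these 58 were matched to the annotation, 56 by symbol and 2 through RefSeq synonyms. An IDR region was at a TSS of 9 of the 58 (15.5%), a pooled one at 20 (34.5%). Among the 57 that are protein-coding these shares were 14.0% and 33.3%, near the 15.0% and 37.1% of all coding genes.

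These IDR regions fell in 3 of the 8 roles. J proteins, the partners of Hsp70, had them at 5 of 12 genes, chaperonins at 2 of 12, and regulators and exchange factors at 2 of 4. None was at the 8 genes listed as other small heat shock genes and relatives or at the 7 stress-inducible Hsp70 genes. The 4 other Hsp70 and Hsp110 genes, the 2 other Hsp90 genes and the 9 matched Hsp90 co-chaperones had none either. The plot of other chaperones by role shows the ranks.

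The strongest of these was at CG7130, a J protein gene, with a pooled signal of 342 and rank 410, and ranks of 455 in replicate 1 and 689 in replicate 3, though its summit was shared with the ribosomal protein gene RpLP0. The J protein gene mrj followed with 266 and rank 670, and ranks of 724 and 744 in replicates 1 and 3. The noncoding heat shock RNA gene lncRNA:Hsromega, whose transcript gathers RNA-binding proteins in nuclear speckles, had 241 and rank 801, its summit 157 bp after a TSS, and ranks of 789 and 1304. These 3 kept high ranks in both replicates.

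The remaining 6 lay lower. DnaJ-H, a J protein gene, had a signal of 182 and rank 1355 in a region shared with the deacetylase gene Sirt1, and CG11267, which encodes Hsp10, the lid of the mitochondrial chaperonin, had 142 and rank 1980. The J protein genes Tpr2 and P58IPK had ranks of 2263 and 2439, and stv, a BAG-family exchange factor of Hsp70, had 2261. CCT8, a subunit of the cytosolic chaperonin, had rank 2989 in a region shared with CG30349, with no region in replicate 1 and rank 1830 in replicate 3. Of the genes listed in both replicates, stv differed most, at rank 1670 in replicate 1 and 13693 in replicate 3. Of the 9 genes, 5 had TSS regions among the 3869 strongest of both replicates.

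**Figure D5:**
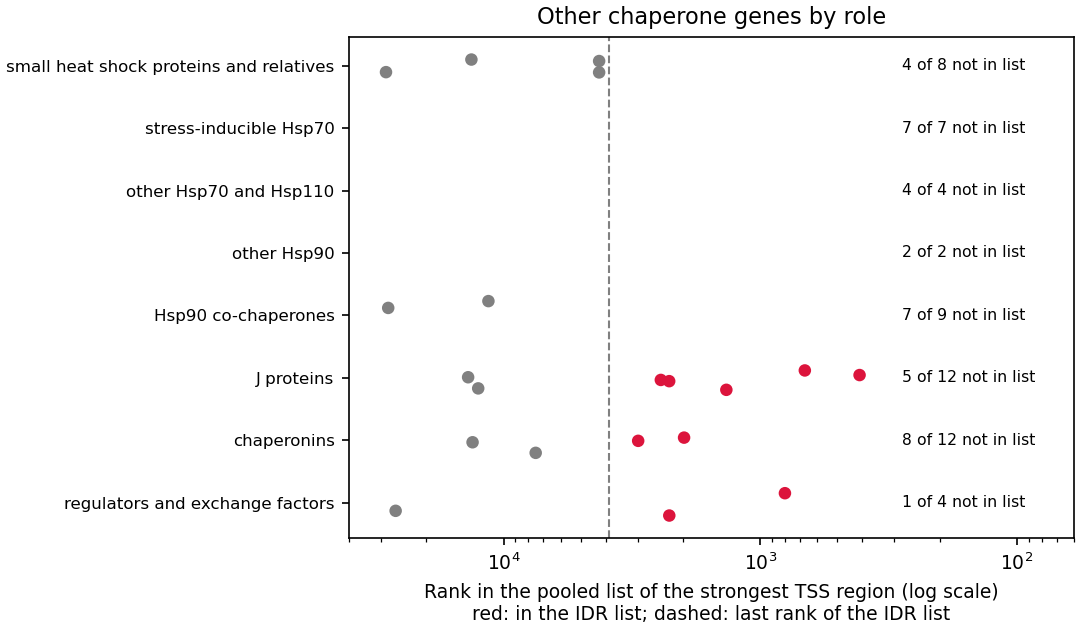
Rank in the pooled list (log scale) of the strongest TSS region of each other chaperone gene, by role: red points are in the IDR list, grey points outside it, the dashed line is its last rank, 3869, and the number of genes with no pooled region at a TSS stands at the right. Red points occur among J proteins, chaperonins, and regulators and exchange factors, and the 7 stress-inducible Hsp70 genes have no point.

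At the 6 copies of the inducible Hsp70 gene, from Hsp70Aa to Hsp70Bc, no list held a region. From 67.7% to 100% of the 36-base words within 500 bp of their TSSs occur again on the major arms, against 0% at 9 of the 10 genes described here and 3.96% at Hsp83. How reads that match several places were handled is not given in the sources used here, so a lack of binding and a loss of such reads cannot be told apart at these copies. Hsp68, an inducible Hsp70 with no such repeat, had a region in replicate 1 alone, with a signal of 56.4 and rank 4012.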

How the data were processed

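ChIP-seq of GFP-tagged CG11723 was available for 2 replicates of 1 group. Per the submitters' file notes, the authors called regions on the dm6 alignments of each replicate and of both pooled, with a control, before thresholding, and derived a final list by IDR. Which aligner, caller and IDR threshold were used is not given in the sources used here, and read depth is unknown. Regions were ranked by the deposited signal, a score of unstated scale, in each list separately. Many regions tied at the highest deposited −log10 q value: 79.3% of the IDR list stood at its maximum of 3.79. Lists on the dm3 build were not used.

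Summits were assigned to genes of Ensembl release 115 (BDGP6.54). Distances run along the gene's strand, negative upstream. Unless stated otherwise, a summit was measured from the gene's nearest annotated TSS, and a motif from the TSS nearest to the pooled summit. Sequence and promoter windows around these TSSs came from the RefSeq Release 6 genome. One summit sequence is not reported here. Python 3.11.15, numpy 2.4.6, pandas 2.3.3 and matplotlib 3.10.9 were used. Assignment of summits to TSSs was tested on simulated regions, and the search for GAANNTTC and TATAAA on short made-up sequences. No test was run, since there was 1 group. Regions in the replicate lists were counted as strongest when ranked within 3869, and as shared with 1 bp of overlap.

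The 10 genes and all gene lists were chosen with earlier results of these data known. The text names these genes, genes with a TSS within 500 bp of a summit of their IDR regions, and other chaperone genes with an IDR region. The cluster relatives, Hsp68, the Hsp70 copies and the repeated words were chosen after their values were seen. Of 60 chaperone names, 1 was ambiguous and 1 was not found. Alternatives were TSS windows of 200 and 1000 bp, and other choices of the position in a region, the list, the overlap, the number of top regions, the TSS and the motif window. Each replicate was also left out, by reading the list of the other alone.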

Additional observations from a re-analysis of the deposited data

How the results depend on the processing

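The count of 7 genes with an IDR region at a TSS became 5 with a TSS window of 200 bp, without Hsp22 and Hsc70-3, and 6 with the outermost TSS alone, without Hsp22, or with 1934 regions of the IDR list, without Hsc70-3. It stayed at 7 with a window of 1000 bp, the region's midpoint or any of its bases, and became 10 with every pooled region. Leaving out a replicate meant counting the 3869 strongest regions of the other in place of the IDR list. This gave 7 in each case, but without replicate 1 Hsp60A replaced Hsc70-3. The count of 9 other chaperone genes became 4 with the window of 200 bp, and 7 to 8 when a replicate was left out. The 6 genes strong in both replicates became 3 with 1934 top regions a replicate (Hsp83, Hsp27 and Hsc70-5), and 5 with 50% reciprocal overlap. Apart from the 37.1% with every pooled region, shares of all coding genes under these settings are not given. The changed counts therefore cannot be set against the 15.0% and 9.59% above. The median rank over the 10 genes, 1756.5, was 1936.0 in replicate 1, and 1441.0 over the 9 genes listed in replicate 3, and the median summit position of the 7, -162 bp, moved to between -145 and -119 bp. Of 14 motif counts under other windows, 5 moved. The causes were not tested. No paired analysis was possible because there is 1 group. Unknown depth limits what a missing region in 1 replicate can show, as at Hsp23 and Hsc70-3.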

Other observations

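Past the end of Hsp83, outside the gene body and every TSS window of that gene, the pooled list held regions 4496 and 4697 bp after the outer TSS, with signals of 52.9 and 44.5. Replicate 1 listed both, at ranks 3544 and 6219, and replicate 3 neither. The gene of heat shock factor itself, Hsf, had a TSS region in replicate 1 alone, with a signal of 18.7 and rank 19485, and the J protein gene CG5001 was listed only in replicate 3, at rank 2427. At the edge of the small heat shock cluster, the neighbouring gene CG4452 had an IDR region at a TSS with a pooled signal of 100 and rank 3254. Its ranks were 4385 in replicate 1 and 3947 in replicate 3, both outside the 3869 strongest of the replicate. These genes were named after their values were seen.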
